A study of Mus musculus with 28 samples.

Results

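The genes described here encode the protein subunits of the cytosolic ribosome. They were chosen by symbol: Rpl or Rps followed by a number and at most 1 further letter (a, x or y), together with Rplp0, Rplp1, Rplp2, Rpsa, Rps27l, Rpl22l1, Rpl7l1, Rpl39l and Rpl36al, with annotated pseudogene symbols left out. This rule gave 81 of the 24391 gene symbols in the table, 50 of the large and 31 of the small subunit. Every mouse in the series carried the genotype Cx3CR1-Cre/TRAPfl, home cage controls included. A Cre driven by Cx3cr1 switches on a floxed transgene that tags ribosomes. The labels do not name the tagged protein. In the TRAP (translating ribosome affinity purification) alleles in common use it is Rpl10a, a protein of the large subunit, and precipitating the tag brings down ribosomes with the mRNA on them. Motor cortex came from 14 mice. Of these, 7 were home cage controls and 7 had run for 1 h on a rotarod, with 4 females and 3 males per condition by the labels. Of each set of 7, cohort 1 supplied 4 and cohort 2 the other 3. Every mouse gave a TRAP library and a total lysate library, 28 in all, whose total counts ran from 70090518 to 241381845. Neither age nor strain is given in the sources used.

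The labels call all 28 libraries microglia, although total lysate holds every cell of the tissue. All 14 microglia markers were higher in TRAP, with a median log2 fold of 6.54, and their summed level was 482 to 643 CPM (counts scaled to a common library size) in lysate and 31200 to 89100 in TRAP. No marker of any of the 6 cell types looked at was at 0 in any library. Neuron markers fell to a median log2 fold of -1.43 and still summed to 2160 to 8800 CPM in TRAP. All 5 markers of border macrophages, which also express Cx3cr1, were higher in TRAP (median 6.24), as were the 5 of endothelium (2.58). Levels of 4 Y-linked genes matched the labelled sex in 24 libraries. Both libraries of the run mice labelled Male1 and Female2 of cohort 2 did not match. Exchanging these 2 labels would change neither condition nor cohort. Whether they were exchanged was not tested. The run effect in each fraction is given with and without these 2 mice. So are its differences between the fractions and, in TRAP, between the cohorts. In bulk samples such as these fewer cells of a type and less RNA per cell cannot be told apart.

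A ribosome needs most of its protein subunits in equal numbers, and most subunits are encoded by a single active gene with many processed pseudogenes elsewhere in the genome. Their mRNAs are the best known 5′ TOP mRNAs, which begin with a C followed by a run of C and T, a terminal oligopyrimidine tract through which mTORC1 and Larp1 control their translation. A few members have a paralog of their own, such as Rpl22l1 or Rpl39l, that can take the place of the standard protein. Start regions could be looked up for 61 of the 81 members in RefSeq (GRCm38.p6). The motif searched was a C followed by 4 letters that are each C or T, on the sense strand, beginning within 10 bases of the annotated start. It was found in 37 of the 61 members (60.7%), in 33.3% of all 27025 genes with a start in the same table, and in 44.1% of 68 mitochondrial ribosomal protein genes. Of the other TOP mRNAs listed below, 10 had a start and 4 of these held the motif. A match describes these letters only, and an annotated start is not a measured one.

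The start regions of 8 members with a single annotated start are shown to let a reader compare letters with ratios. They include small subunit genes with high TRAP over lysate ratios (Rps9, Rps10 and Rps4x) and with lower ones (Rps6, the S6 kinase substrate, and Rps27), and genes of paralog pairs. Each runs from 10 bases before the start to 20 bases after it, 5′ to 3′. Capitals mark each run of C and T, from its first C, that holds the motif. Rps4x has none in this window.
Rps9, chr7:3704031-3704060, plus strand: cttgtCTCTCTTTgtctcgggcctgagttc
Rps10, chr17:27635225-27635254, minus strand: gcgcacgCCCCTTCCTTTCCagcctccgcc
Rps6, chr4:86857348-86857377, minus strand: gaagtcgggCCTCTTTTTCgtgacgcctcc
Rps4x, chrX:102189372-102189401, minus strand: gctgggcggagcaacccaggctccagcgcg
Rps27, chr3:90213629-90213658, minus strand: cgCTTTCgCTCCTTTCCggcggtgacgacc
Rpl39, chrX:37085203-37085232, minus strand: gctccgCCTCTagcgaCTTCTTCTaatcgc
Rpl39l, chr16:10170218-10170247, plus strand: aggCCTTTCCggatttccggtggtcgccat
Rpl22l1, chr3:28805498-28805527, plus strand: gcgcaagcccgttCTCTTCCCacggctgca

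The sequence of most members is repeated elsewhere, which bears on how well they can be counted. All 81 matched a GENCODE vM21 gene on GRCm38. The median member shared 41.4% of the 100-base words of its mRNA with another annotated gene, and 36 members shared 50% or more. Rps27 shared 98.4%, Rpl10 91.6% and Rpl10a 75.9%, whereas Rpl22, Rpl32, Rpl39l, Rps21, Rps27l and Rps3 were among those that shared none. How reads with several matches were treated is not given in the sources used, so the level of a member with many copies is uncertain. Across the 81 genes Spearman's rho of the share of repeated words was -0.22 with the lysate level per kb and -0.14 with the TRAP over lysate fold. Both are descriptions over genes that share libraries.

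Levels were compared between genes as CPM per kb of exonic length, with CPM scaled by TMM (trimmed mean of M values) over all libraries. In total lysate the members ran from 0.123 to 404 CPM per kb with a median of 57.7. Among the highest were the stalk protein gene Rplp1 at 404 ± 81.6 (SD, n = 14), Rps29 at 262 ± 93.9, Rps15 at 259 ± 128 and Rpl41 at 202 ± 37.3. Over both cohorts, Rps29, Rps15 and Rpl41 each differed from the next of the 3 by less than the larger SD. Rplp1 differed from Rps29 by more. These SDs include the shift between the cohorts, and the order changed with cohort. In lysate of cohort 1, Rplp1, Rps29 and Rps15 had 348, 336 and 159 CPM per kb. In cohort 2 they had 479.5, 163 and 392. In TRAP the median was 199 CPM per kb, and Rplp1 (2076 ± 775), Rps29 (2046 ± 884) and Rps15 (723 ± 503) were among the highest. Over both cohorts Rplp1 and Rps29 differed by less than their SDs, and Rps29 and Rps15 by more. In TRAP of cohort 1, Rplp1, Rps29 and Rps15 had 1734, 2562 and 386 CPM per kb. In cohort 2 they had 2532, 1357 and 1173. Rpl10a stood low among the members at 10.4 ± 1.51 in lysate and 33.2 ± 14.4 in TRAP. Per kb of coding sequence Rps29 led in TRAP and Rpl41 in lysate, and only 3 of the 5 highest in TRAP and 2 of the 5 in lysate stayed among the 5 highest.

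At the bottom of the order 5 members lay far below the rest in both fractions. In lysate they were Rpl34 at 1.75 ± 0.40 CPM per kb, Rps27 at 1.33 ± 0.36, Rpl30 at 0.380 ± 0.0752, Rpl39l at 0.298 ± 0.348 and Rpl26 at 0.123 ± 0.0406. Rpl39l encodes a paralog of Rpl39 that is best known from testis, but Rpl34, Rps27, Rpl30 and Rpl26 are core proteins of every ribosome. Their counts were small for libraries of this size. Rpl26 had 0 to 34 counts per TRAP library and 14 to 47 per lysate library, and Rps27 had 76 to 675 and 93 to 370. The part that repeated sequence or the gene model plays in these low counts was not tested.

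The 2 cohorts differed in the relative levels of the members, and the difference followed base composition. In TRAP 53 members had a higher mean in cohort 2 and 28 a lower one, and in lysate 34 were higher and 47 lower. The log2 of mean CPM in cohort 2 over cohort 1 ran from -2.92 to 1.66 in TRAP and from -3.32 to 1.51 in lysate. Its Spearman correlation with the GC content of the exons was 0.67 in TRAP and 0.61 in lysate over the 81 genes. The 29 members with GC content under 50% had a median of -0.35 in TRAP and -0.88 in lysate, against 0.67 and 0.10 for the other 52. Rpl22l1, the member with the lowest GC content (41.3%), had the lowest value in both fractions. Rpl39, Rpl39l and Rps27l followed in both. Rpsa in TRAP (1.66) and Rpl29 in lysate (1.51) had the highest. These are descriptions of the cohorts, whose libraries also differ in depth, and their cause was not tested. The matching counts and GC correlation over all genes are not given here, so the shift is not shown to be particular to the members. The main tests below therefore fit cohort as a covariate, and ratios within a mouse compare libraries of the same cohort. Levels, ranges and shares given below over both cohorts still hold this difference.

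**Figure D1:**
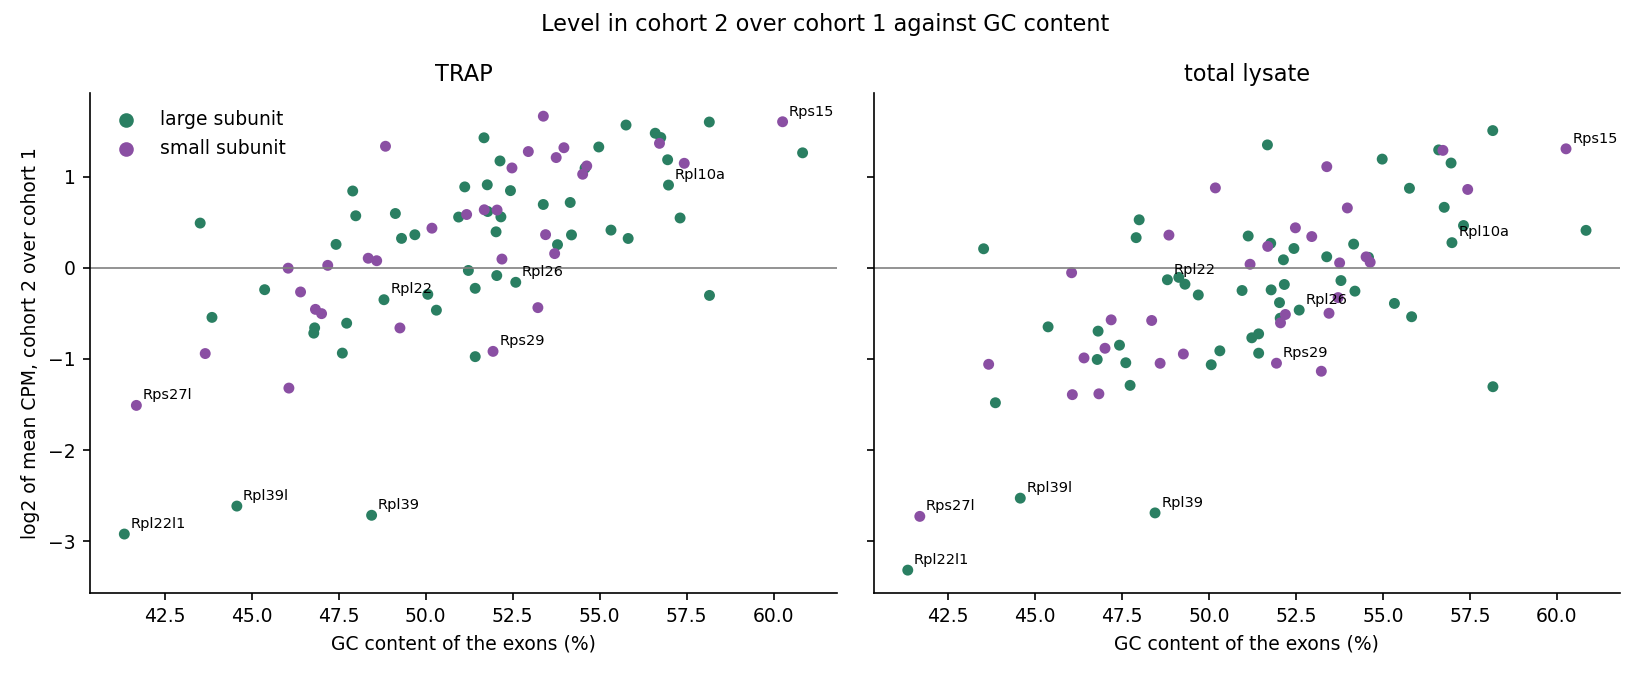
Each point is 1 of the 81 genes, with the GC content of its exons in percent on the x axis and the log2 of its mean CPM in cohort 2 over cohort 1 on the y axis, for TRAP (left) and total lysate (right); colour gives the subunit. Points rise from left to right in both panels (rho 0.67 and 0.61), with Rpl22l1, Rpl39, Rpl39l and Rps27l lowest.

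Nearly the whole family was higher in TRAP than in total lysate. In edgeR's quasi-likelihood test, with Benjamini-Hochberg adjustment over 16716 genes, 78 of the 81 members were higher in TRAP and 1 was lower, where 34.0% of all genes tested were higher and 40.1% lower. The members' median log2 fold was 1.76, a fold of 3.38, with the middle 50% of the genes between 1.46 and 2.17, while the median over all genes was -0.20. At least 2-fold higher were 74 members, and 31 were at least 4-fold higher. Together they made up 1.05% to 1.48% of the counts in lysate and 2.38% to 4.64% in TRAP, so that the ranges do not overlap. In 77 members the TRAP value was above the same mouse's lysate value in all 14 mice. The share of all genes that reached these folds, or was higher in every mouse, is not given here. The 2 subunits were alike in their medians, 1.74 for the 50 large subunit genes and 1.81 for the 31 small subunit genes. The 24 members with under 25% of their 100-base words repeated elsewhere were all higher, with a median of 1.96. Members with the TOP-type motif at their start had a median of 1.75 and those without it 1.79. With library totals in place of TMM the median over all genes moved by -0.51, to -0.71, and that of the members to 1.24. Relative to all genes the members stood at 1.96 with TMM and 1.95 with totals.

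**Figure D2:**
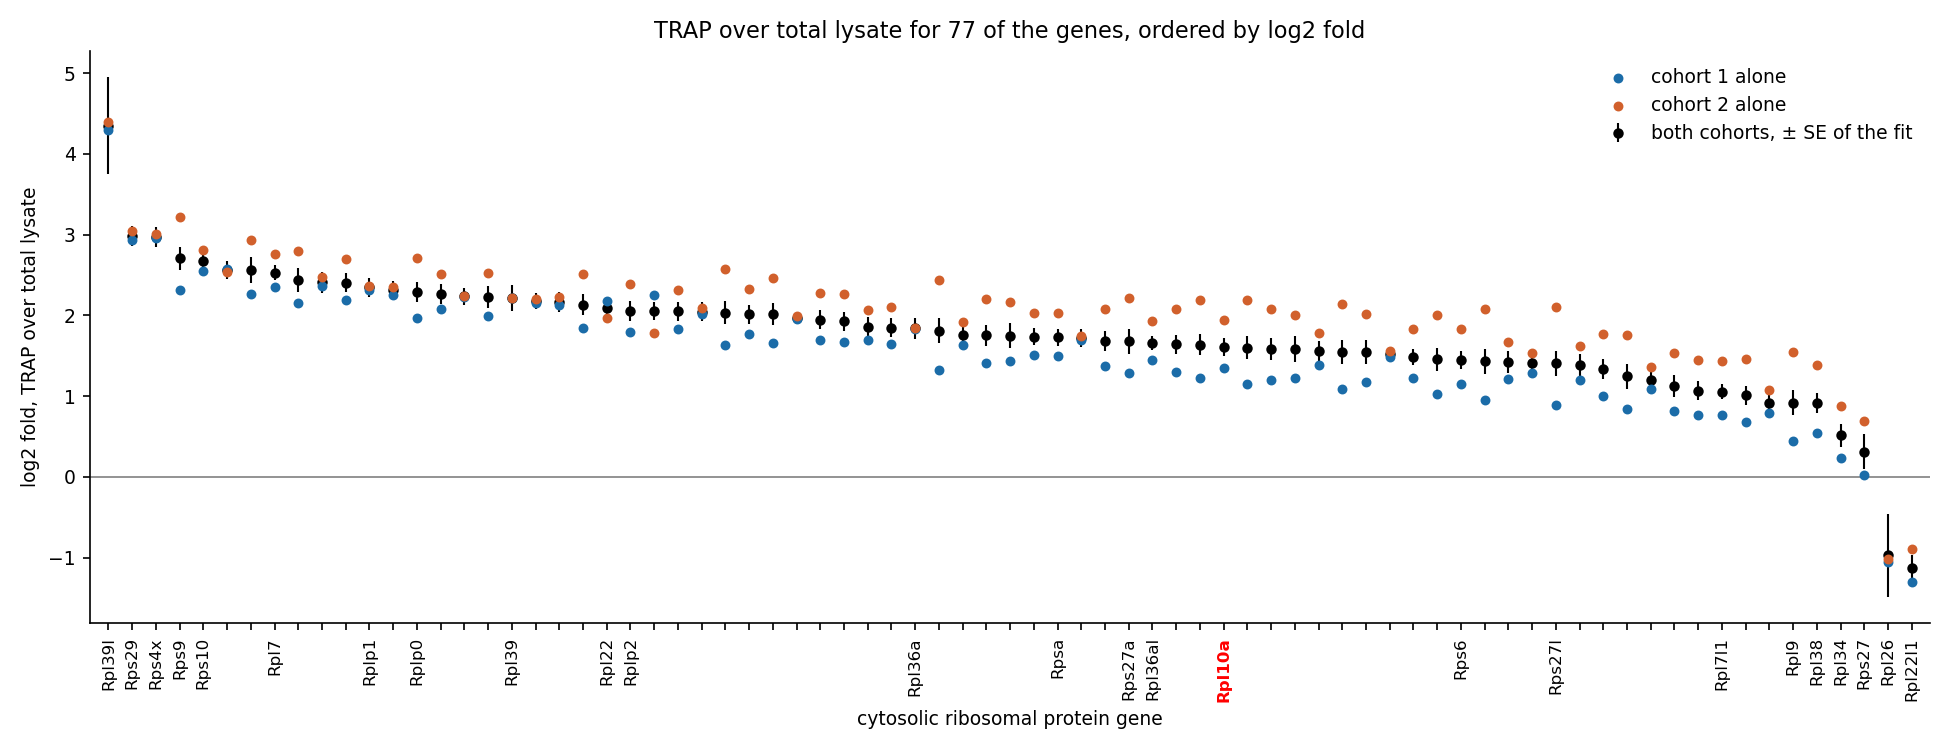
77 of the genes are ordered on the x axis by log2 fold of TRAP over total lysate (y axis), with names for genes the text describes; black points are the fit over both cohorts with its SE, blue and orange points the fits in cohort 1 and cohort 2 alone, and Rpl10a is marked in red. All but Rpl26 and Rpl22l1 lie above 0, and most orange points lie above the blue ones.

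Rpl10a, the protein carried by the tag in the common TRAP alleles, did not stand out among the members. In lysate it ranged from 19.8 to 28.4 CPM in home cage mice (median 23.1) and from 22.2 to 31.1 in run mice (median 27.1). In TRAP it ranged from 48.1 to 103 CPM (median 73.7) and from 51.6 to 161 (median 74.0). Every TRAP library was above every lysate library. The log2 fold was 1.61 ± 0.11 (SE; edgeR adjusted p = 4.64e-14), rank 52 of the 81 members. Within the mice Rpl10a lay below the median member in 12 of 14. Whether reads of the tag transgene were counted for this gene was not tested.

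The members that form the stalk, which brings elongation factors to the ribosome, were all above the family median. Rplp1 had a log2 fold of 2.35 ± 0.12 (edgeR adjusted p = 1.02e-17), Rplp0 of 2.29 ± 0.12 and Rplp2 of 2.06 ± 0.12. Rplp0 was above the median member in every mouse. Rpsa, also known as the laminin receptor precursor, stood at 1.73 ± 0.11 and Rps27a, which is made as a fusion with ubiquitin, at 1.68 ± 0.16. Rps6, the target of S6 kinase that carries the long pyrimidine run shown above, had a log2 fold of 1.44 ± 0.11 and lay below the median member in all 14 mice.

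The members with the highest ratios included Rpl39l at 4.35 ± 0.61, Rps29 at 2.98 ± 0.13, Rps4x at 2.97 ± 0.12 and Rps9 at 2.71 ± 0.15. Rps29 ranged from 107 to 253 CPM in home cage lysate and from 619 to 2560 in home cage TRAP, with the 4 cohort 1 libraries highest in each. Rps4x, the X-linked gene of a small subunit protein, had 81.5 to 119 and 491 to 1110 CPM in the same groups, with its cohorts intermingled. For both genes TRAP and lysate did not overlap. Above the median member in every mouse were 12 genes, 7 of them from the small subunit, with Rps29, Rps4x, Rps9, Rps10, Rps12, Rps16, Rps28, Rpl7, Rpl11, Rpl21 and Rplp0 among them. Another 15 were below it in every mouse, 12 of them from the large subunit, Rpl9, Rpl14, Rpl15, Rpl17, Rpl24, Rpl32 and Rpl38 among them. The interquartile range of the log2 ratio over the members was 0.54 to 0.92 in single mice.

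The 5 with the lowest ratio were Rpl22l1 at -1.13 ± 0.16 (edgeR adjusted p = 2.48e-07), Rpl26 at -0.97 ± 0.51 (0.0878), Rps27 at 0.31 ± 0.22 (0.193), Rpl34 at 0.52 ± 0.14 (0.00157) and Rpl38 at 0.91 ± 0.12. Rpl26 and Rps27 did not pass the test, and both, like Rpl34, rest on the small counts described above. Rpl26 passed it, as lower, in 6 other fits, among them DESeq2 (log2 fold -1.02, adjusted p = 0.032), and without the home cage mouse labelled Male1 of cohort 1 (-1.27). Rpl34 lost its call in cohort 1 alone (0.24, adjusted p = 0.321), in run mice alone (0.42, adjusted p = 0.0953) and with library totals (-0.004, adjusted p = 0.976), and in the fits with a replicate block on the mouse and a GC or length offset (0.18 and 0.15). Rpl38, a large subunit protein known for its role in translating homeobox mRNAs, was called in every fit listed for the others.

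Rpl22l1 was the only member called lower in TRAP in the main edgeR fit over all 28 libraries, while Rpl22, the standard protein, rose. In lysate Rpl22l1 had 358 to 555 CPM in the 8 mice of cohort 1 and 28.5 to 82.9 in the 6 of cohort 2. In TRAP the values were 134 to 213 CPM and 11.1 to 37.5. It was lower in TRAP in each cohort alone (-1.30 and -0.89) and in 12 of the 14 mice. Rpl22 had 50.3 to 73.2 CPM in lysate and 157 to 392 in TRAP, with a log2 fold of 2.09 ± 0.10 (edgeR adjusted p = 1.51e-17). Per kb, Rpl22l1 was above Rpl22 in lysate of cohort 1 (226 against 21.4 CPM per kb) and close to it in cohort 2 (22.7 against 19.5). In TRAP it was near Rpl22 in cohort 1 (91.5 against 96.8) and lower in cohort 2 (12.1 against 76.0). Rpl22l1 shared 50.8% of its 100-base words with other genes, and Rpl22 none.

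Rpl39, which lines the tunnel through which the new protein leaves, had 27.0 to 292 CPM in lysate and 55.3 to 1470 in TRAP. Its cohorts did not overlap in either fraction, with cohort 1 higher. The log2 fold was 2.21 ± 0.16, and 2.22 in each cohort alone. Its paralog Rpl39l was at most 0.876 CPM in lysate, and 2 run lysate libraries held no count. In TRAP Rpl39l ranged from 3.40 to 20.6 CPM in cohort 1 and from 0.123 to 2.92 in cohort 2, and it was above its own lysate in all 14 mice. The log2 fold of 4.35 is a 20.4-fold difference (edgeR adjusted p = 1.69e-07), with a within-mouse log2 ratio, at a pseudocount of 0.1 CPM, from 1.00 to 7.70. Rpl39l shares no 50-base word with another gene, but in TRAP its level was 6.20 CPM per kb beside 523 for Rpl39. The Rpl39l count was even in 27 of the 28 libraries. Whether its reads were counted more than once was not tested.

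For the other pairs the measured ratios differed less. Rps27l, a paralog of Rps27 known as a p53 target, had 93.5 to 183 CPM in lysate of cohort 1 and 17.5 to 24.3 in cohort 2. In TRAP it had 211 to 309 and 70.4 to 117 CPM, a log2 fold of 1.41 ± 0.15 (edgeR adjusted p = 1.35e-09). Rps27 itself was at 0.817 to 3.90 CPM over all libraries, so no comparison of the pair is drawn. Rpl36a and Rpl36al stood at 1.84 ± 0.13 and 1.65 ± 0.09, and at 91.8 and 92.5 CPM per kb in TRAP, though Rpl36a shares 83.6% of its 100-base words elsewhere and Rpl36al 59.0%. Rpl7 was at 2.53 ± 0.10 and its relative Rpl7l1 at 1.06 ± 0.09. Rpl7 was above the median member in every mouse and Rpl7l1 below it in every mouse.

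**Figure D3:**
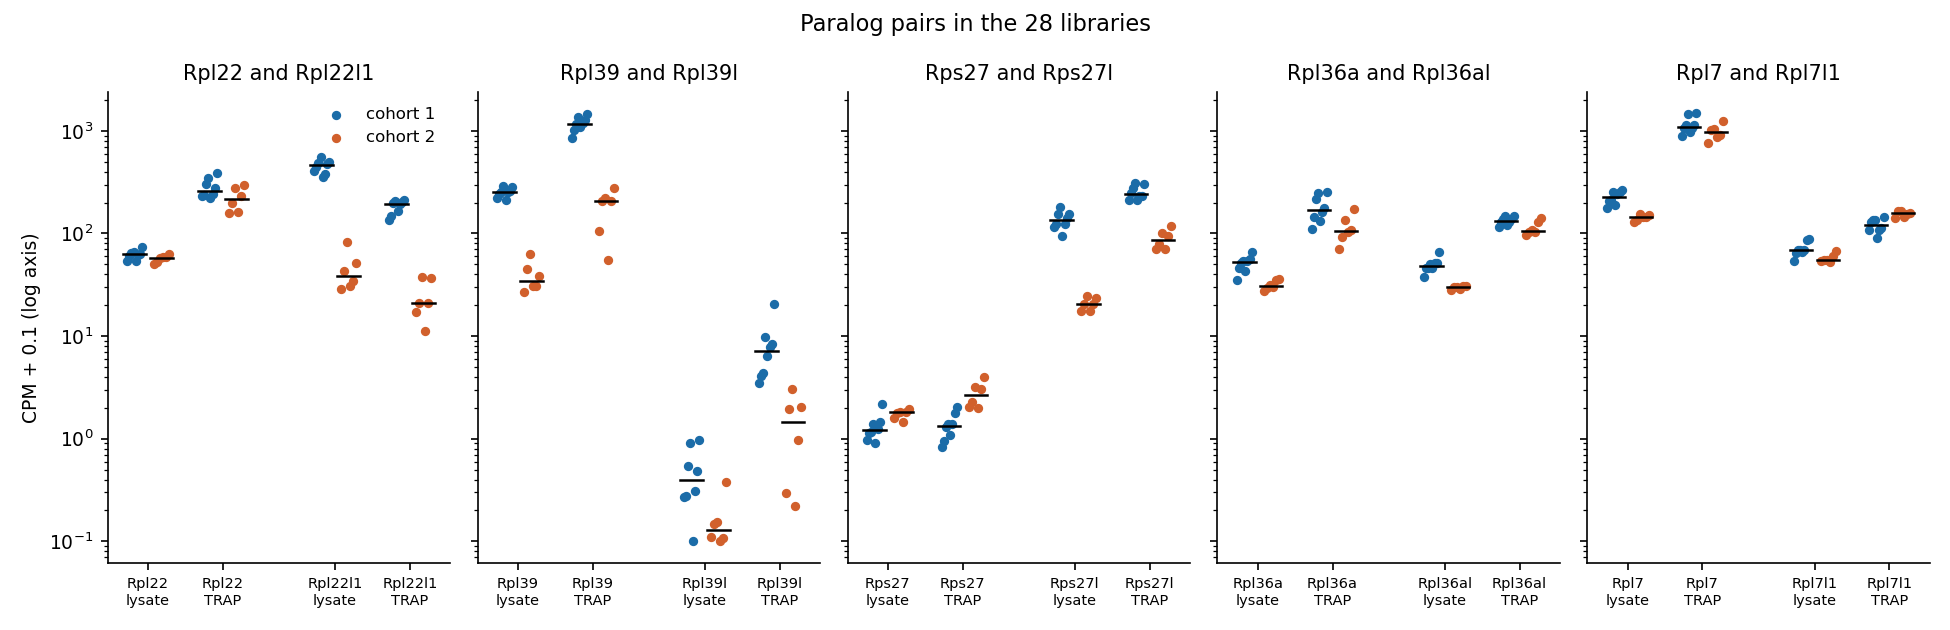
Every point is a library, with CPM plus 0.1 on a log axis, for lysate and TRAP in cohort 1 (blue) and cohort 2 (orange); bars are medians. Rpl22l1 is lower in TRAP than in lysate while Rpl22 is higher, Rpl39l is near 0 in lysate, and Rps27 is near 1 CPM throughout.

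Genes outside the family were set beside it from lists drawn up for the pathway. Among mitochondrial ribosomal protein genes, which build the separate ribosome of mitochondria, 18 of 77 were higher in TRAP and 33 lower, with a median of -0.13. Mrpl52 (1.66), Mrpl43 (0.98) and Mrps15 (1.18) were higher, and Mrps22 (-1.52), Mrps10 (-0.96) and Mrpl3 (-0.75) lower. Of 16 other mRNAs of the TOP class, 15 were higher and 1 lower (median 1.67), led by the poly(A) binding protein gene Pabpc1 (3.77) and the elongation factor gene Eef1a1 (2.37), with Nap1l1 lower (-0.33). Of 6 further genes tested that encode ribosomal proteins or their partners under other symbols, 5 were higher, among them Gnb2l1 (2.39), Rps3a1 (1.99) and Fau (2.23), and Rpl3l was lower (-3.05). Of ribosome biogenesis genes 9 of 23 were higher and 9 lower, near the 34.0% and 40.1% of all genes, with the rRNA methyltransferase gene Fbl at 1.84 and Bop1, an assembly factor, at -0.90. Genes of mTORC1 and its regulators were also near that background, 7 of 18 higher and 8 lower, with Rptor, the gene of its scaffold Raptor, at 1.51 and Mtor at -1.41.

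The ratio of TRAP to lysate was larger in cohort 2 for many members. In the interaction test 40 of the 81 had a higher ratio in cohort 2 and 0 a lower one, where 8.56% of all genes were higher and 11.9% lower. The members' median difference was 0.56 and that of all genes -0.05. Within the mice the median ratio of the members ranged from 1.34 to 1.98 in cohort 1 and from 1.74 to 2.47 in cohort 2, which overlap. The 2 run mice of unmatched sex markers, Male1 and Female2 of cohort 2, had 2.47 and 2.1. The interaction test was not run without them. Among the highest differences were those of Rps27l (1.22), Rps18 (1.14), Rps25 (1.12) and Rpl9 (1.10), and Rpl10a was also called (0.61 ± 0.18, edgeR adjusted p = 0.0181). The 5 lowest, Rps26 (-0.47), Rpl22 (-0.22), Rpl23 (-0.04), Rpl39 (-0.03) and Rpl8 (0.02), did not pass. For Rps27l, whose levels are given with the paralogs, cohort 2 lay below cohort 1 in both fractions without overlap, by a log2 of -2.73 in lysate and -1.51 in TRAP. Cell type markers differed beside it. All 10 neuron markers had a lower ratio in cohort 2 (median -0.96) and 5 of 14 microglia markers a higher one (median of the list 0.44). Astrocyte markers were lower in 2 of 5 (median -0.43) and oligodendrocyte markers in 1 of 5 (-0.45). Endothelium and border macrophage markers had 0 called (0.36 and 0.27). Of mitochondrial ribosomal protein genes 34 of 77 were higher (median 0.43), and of the other TOP mRNAs 3 of 16 (0.11). Their part in the result was not tested.

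**Figure D4:**
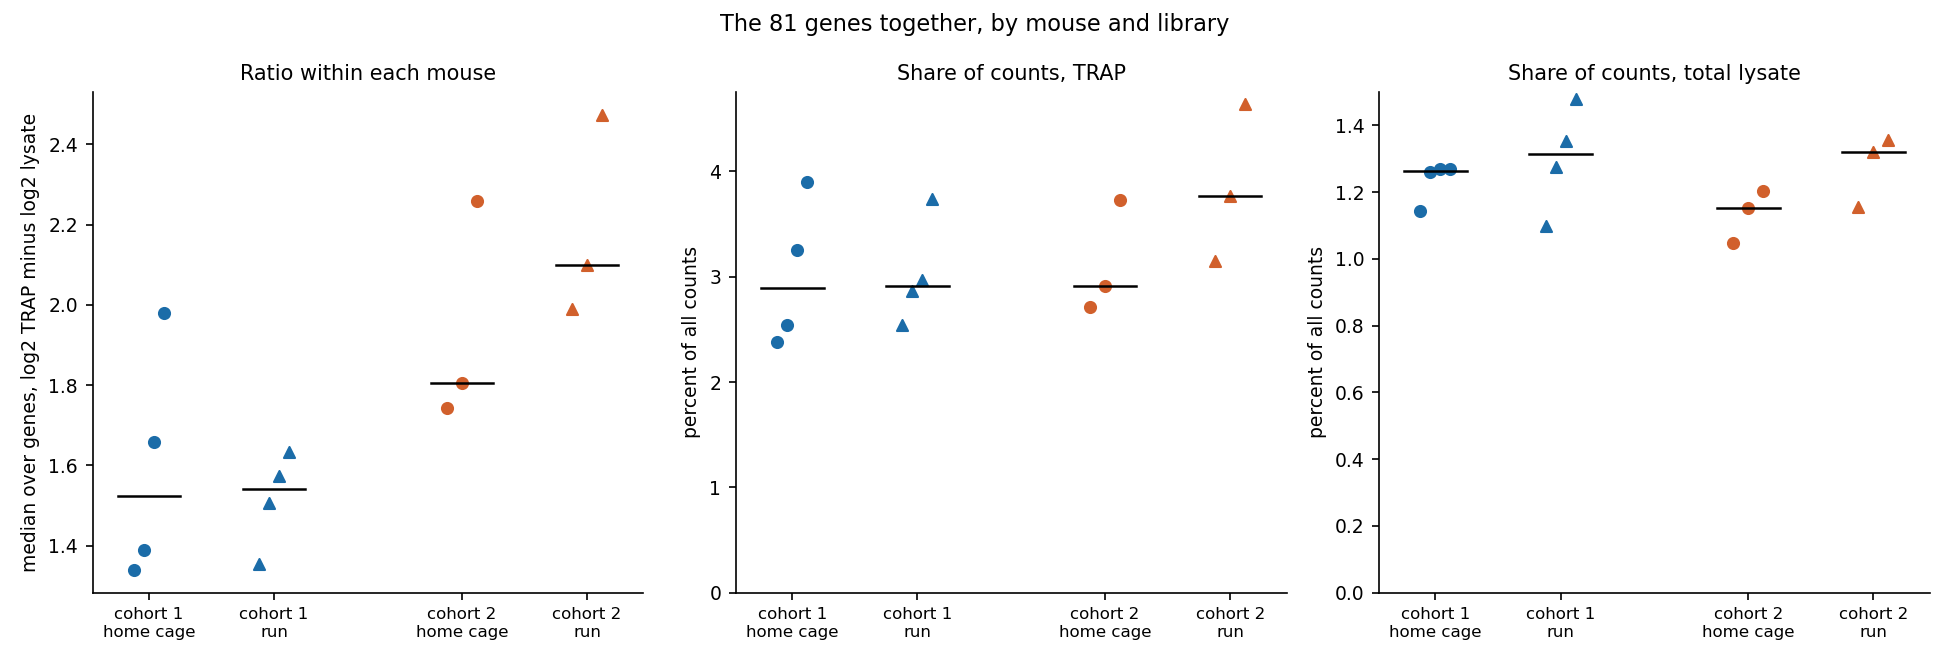
Left, the median over the 81 genes of log2 TRAP minus log2 lysate CPM in each of 14 mice; centre and right, the share of all counts that the genes took in TRAP and lysate libraries, in percent; bars are medians of 3 or 4 mice. The ratio is mostly higher in cohort 2, and the highest point in the left and centre panels is the run mouse labelled Male1 of cohort 2.

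Whether an hour on the rotarod changed the members in microglial TRAP was tested over the 14 TRAP libraries with cohort as a covariate. Of the 81 members 80 passed the filter on low counts (Rpl26 did not), and edgeR called 0 of them, where 0.0460% of all genes, 7 of 15203, were called. At an unadjusted p under 0.05, beside 540 of the 15203 genes, there was 1 member, Rpl15, a large subunit gene. Its log2 fold was 0.26 ± 0.12 (edgeR adjusted p = 0.999). DESeq2 and limma-voom called 0 as well, though DESeq2 called 33 other genes higher and 6 lower. The members nonetheless leaned one way: 79 of 80 had a positive log2 fold, with a median of 0.18, against 50.2% of all genes and a median of 0.00. The median differed between the cohorts and moved when mice were left out, but the interaction test given below called 0 members. Between TRAP libraries of the same group and cohort, the members' median log2 CPM had an SD of 0.351. Cohort 1 by itself gave a median of 0.02 and cohort 2 one of 0.42. With the 2 mice of unmatched sex markers left out it was 0.02, and 52 of 81 members were positive. Both are run mice of cohort 2, which then holds 1 run mouse, so this fit rests mostly on cohort 1. Leaving out only the TRAP library of the run mouse labelled Male1 of cohort 2 took it to 0.08. Genes of 1 library rise and fall together, so the count of positive members is not a count of separate observations. Beside it, neuron markers had a median of 0.17 with 8 of 10 positive, and microglia markers 0.02 with 9 of 14. Oligodendrocyte markers had 0.19 with 5 of 5 positive, astrocyte markers 0.04 with 3 of 5, border macrophage markers 0.21 with 4 of 5, and endothelium markers -0.23 with 0 of 5. Mitochondrial ribosomal protein genes had 0.06 with 60 of 77 positive. None of these genes was called. A fit with a purity covariate, the mean log2 of microglia markers minus that of neuron markers, gave the members a median of 0.20. In that fit 78 members were positive. The part of the other lists in the result was not tested.

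The share of counts shows the same pattern. Members took 2.38% to 3.90% of the counts in home cage TRAP (median 2.91%) and 2.54% to 4.64% in run TRAP (median 3.15%), and the groups overlap. In cohort 1 the run mice had 2.54% to 3.74%, inside the home cage range. In cohort 2 the run mice had 3.15% to 4.64% and the home cage mice 2.71% to 3.73%. The summed microglia markers were 64100 to 89100 CPM in run TRAP of cohort 2 and 63600 to 67500 in home cage TRAP.

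For Rpl10a, scaled within TRAP, home cage mice of cohort 1 had 41.7, 42.8, 48.9 and 59.0 CPM and run mice 44.0, 45.3, 50.1 and 59.8. In cohort 2 home cage mice had 62.2, 68.5 and 87.7 CPM and run mice 79.4, 122 and 134. The groups overlap in both cohorts, and 2 run libraries of cohort 2 stand above all others. The log2 fold was 0.29 ± 0.15 (edgeR adjusted p = 0.999) and 0.07 ± 0.14 without the 2 mice. The 5 highest members were Rps27 (0.44 ± 0.37), Rpl36 (0.36 ± 0.22), Rpl41 (0.34 ± 0.19), Rps18 (0.32 ± 0.18) and Rpl37a (0.32 ± 0.18), each at an adjusted p of 0.999. Rpl36 had 107 to 139 CPM in run mice of cohort 1 and 217, 435 and 500 in those of cohort 2, against 94.1 to 163 and 159 to 279 in home cage mice. Rpl36, Rpl41, Rps18 and Rpl37a were all between -0.01 and 0.03 without the 2 mice. The 5 lowest were Rpl7l1 (-0.10 ± 0.11), Rps27a (0.02 ± 0.19), Rpl30 (0.03 ± 0.32), Rps27l (0.03 ± 0.13) and Rpl22l1 (0.05 ± 0.22).

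The run effect in TRAP was then compared between the cohorts. The interaction test called 0 of 80 members, as it did for 0% of all 15203 genes. At an unadjusted p under 0.05 there were 7 members, beside 651 of the 15203 genes. The members' median difference, cohort 2 minus cohort 1, was 0.42, with 75 of 80 positive. Mitochondrial ribosomal protein genes had 0.32 with 66 of 77 positive. Over all genes the median was 0.02, with 51.7% positive. Rpl36 was highest (0.94 ± 0.38, edgeR adjusted p = 0.914), then Rpl41 (0.84), Rpl18 (0.77), Rplp2 (0.72) and Rpl37a (0.71). The lowest were Rpl39l (-1.80), Rpl22l1 (-0.33), Rps27 (-0.31), Rpl39 (-0.22) and Rpl4 (-0.03), and none of these passed. Rpl10a was at 0.57 ± 0.28. Without the 2 mice the median was 0.05, and cohort 2 then holds 1 run mouse, whose spread is assumed to be that of the other groups. Limma-voom also called 0.

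In total lysate, which holds mainly other cells, edgeR called 0 of 81 members in the run comparison, where 0.0311% of all genes, 5 of 16091, were called, and DESeq2 and limma-voom called 0 members too. At an unadjusted p under 0.05 there were 9 members, among them Rpl7a, Rpl7l1, Rpl10, Rpl10a, Rpl11, Rpl24 and Rps26, beside 1192 of the 16091 genes. When the run lysate library labelled Female2 of cohort 1 was left out there were 32, beside 1537 of 16280 genes. The log2 fold was positive in 77 of 81 members, against 50.5% of all genes, with a median of 0.14 against 0.00. It was 0.10 in cohort 1, 0.18 in cohort 2 and 0.09 without the 2 mice. Mitochondrial ribosomal protein genes leaned the same way, 71 of 77 positive with a median of 0.10. The share of counts was 1.05% to 1.27% in home cage mice and 1.10% to 1.48% in run mice, and the groups overlap.

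Rpl10a in lysate, scaled within lysate, had 23.7 to 29.0 CPM in home cage and 26.9 to 32.3 in run mice of cohort 1, and 27.3 to 33.4 and 34.0 to 36.9 in cohort 2. In cohort 2 the groups do not overlap and in cohort 1 they do. The log2 fold was 0.21 ± 0.09 (edgeR adjusted p = 0.656), and 0.19 ± 0.11 without the 2 mice. The 5 highest members were Rpl26 (0.48 ± 0.49) and Rpl39l (0.47 ± 0.96), both with few counts, followed by Rps26 (0.26 ± 0.09), Rpl7a (0.25 ± 0.10) and Rpl28 (0.25 ± 0.12). The 5 lowest were Rpl22l1 (-0.25 ± 0.18), Rpl39 (-0.18 ± 0.15), Rpl15 (-0.10 ± 0.12), Rps27l (-0.09 ± 0.13) and Rpl35 (0.03 ± 0.09). In lysate, comparing the run effect between cohorts gave 0 calls among members and in 0% of genes. The median was 0.06, with 0 members at an unadjusted p under 0.05 and 0.02 ± 0.18 for Rpl10a. Over all genes the median was -0.03, and 329 of 16091 had an unadjusted p under 0.05. This comparison was not run without the 2 mice. Its highest values were those of Rpl39l (1.43), Rps12 (0.40), Rpl9 (0.31), Rps27a (0.26) and Rps24 (0.24), and its lowest those of Rpl26 (-0.47), Rpl39 (-0.43), Rps27 (-0.32), Rpl22l1 (-0.25) and Rpl36al (-0.20).

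**Figure D5:**
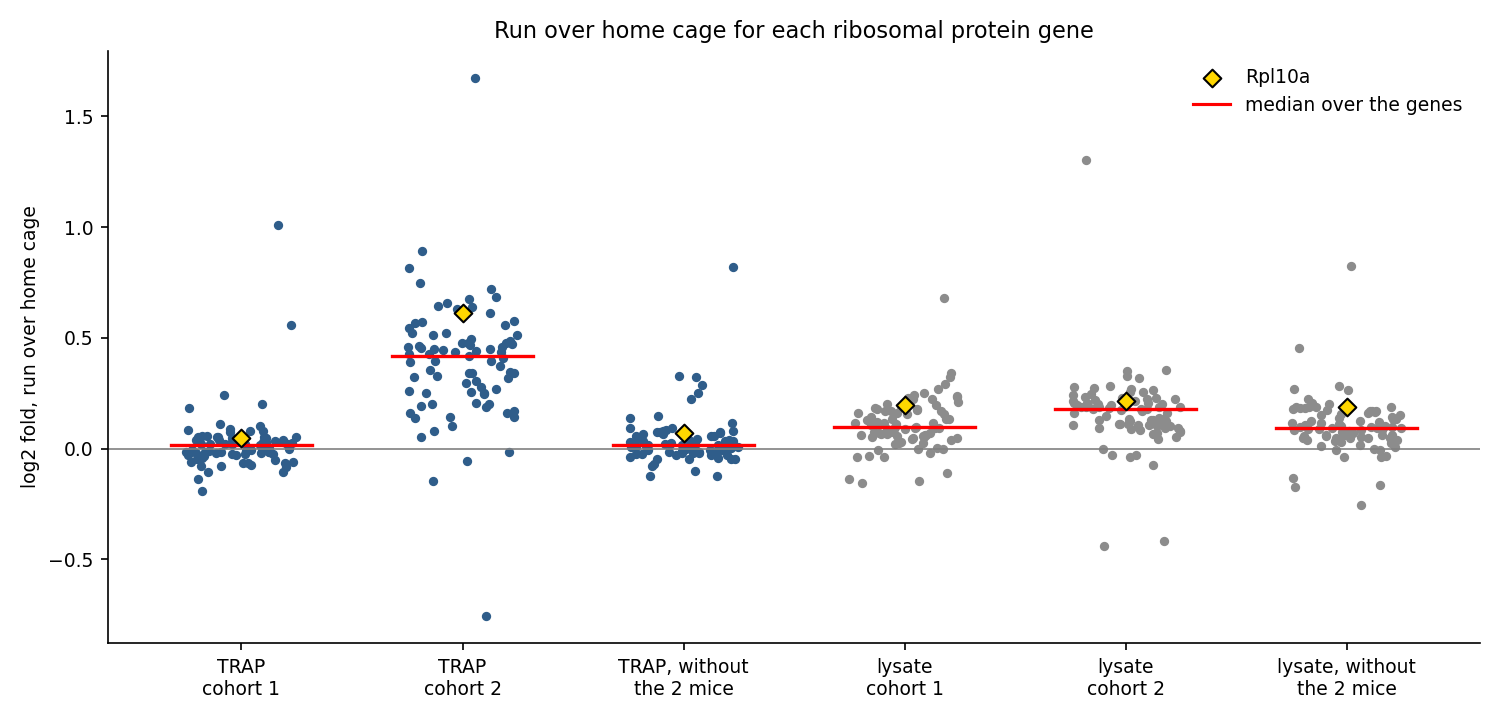
Each point is a gene, with its log2 fold of run over home cage on the y axis in TRAP (blue) and total lysate (grey), for the single cohorts and with the 2 mice of unmatched sex markers left out; red lines are medians and the gold diamond is Rpl10a. The TRAP median is 0.42 in cohort 2 and 0.02 in both cohort 1 and the set without the 2 mice.

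The difference between the fractions asks whether the run effect in TRAP exceeded that in lysate. edgeR called 0 of 81 members and 0% of 16716 genes, while DESeq2 called 22 genes higher and 16 lower but 0 members. Only Rpl7l1 (-0.31 ± 0.14) and Rpl15 (0.36 ± 0.17) had an unadjusted p under 0.05, each with an edgeR adjusted p of 1. The members' median was 0.05, with 55 of 81 positive, -0.01 with library totals and -0.09 without the 2 mice, where 18 of 81 were positive. Over all 16716 genes 775 had an unadjusted p under 0.05, the median was 0.01 and 51.0% were positive. Rpl10a was at 0.09 ± 0.19. Rpl22l1 (0.30), Rpl39 (0.29), Rpl36 (0.28) and Rpl41 (0.25) followed Rpl15 at the top, and Rpl39l (-0.17), Rps26 (-0.11), Rps24 (-0.10) and Rps25 (-0.09) followed Rpl7l1 at the bottom. In the mTORC1 list the run comparison in TRAP called 1 of 18 genes, Ddit4, an inhibitor of mTORC1 (1.83 ± 0.32, edgeR adjusted p = 0.0466). In lysate its log2 fold was 0.71 ± 0.28 (adjusted p = 0.646). Larp1, which binds TOP mRNAs, did not pass in either fraction.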

How the data were processed

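The authors deposited 1 table of raw counts per gene symbol for 28 poly(A) RNA-seq libraries. Per the submitters' processing notes, STAR 2.7.7a, featureCounts, DESeq2 and the GRCm38 build were used, and the sources used give no settings for strand or multiply mapped reads. Of the counts from 1 to 10, 70.1% were even. Columns were matched to samples by title, and no 2 libraries held identical counts.

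The members and lists were chosen with earlier results of these data known. Counts were tested with edgeR 4.0.16 in R 4.3.3 (TMM, filterByExpr, quasi-likelihood test, Benjamini-Hochberg adjustment over all genes tested, threshold 0.05), with cohort as a covariate. TRAP and lysate were fitted together for comparisons between them and separately for the run effect. Alternatives were DESeq2 1.42.0, limma 3.58.1 (voom), other scalings, no low count filter, left-out mice, and GC content or length offsets. Scripts were tested on simulated data. Named were Rpl10a, members by role, the 5 highest and 5 lowest per comparison, and up to 3 genes per direction of each other list. A few members that this rule names are not reported here, though all counts, medians and fits include them. P-values measure the spread between these libraries.

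TRAP and lysate of a mouse come from the same animal, so they are paired, although their deviations from the group means correlated at only -0.06 to 0.11 over the 14 mice. Exonic length, GC content and repeated words came from GENCODE vM21, and start sequences from RefSeq.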

Additional observations from a re-analysis of the deposited data

Results flagged for a closer look

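In 40 groups of libraries, 2 had a library far from the others by Dixon's test, which chance gives in about 1 in 20 groups. Both concern Rpl39l, the paralog of Rpl39. The home cage TRAP library labelled Female2 of cohort 1 had 9.69 CPM and the run TRAP library labelled Female1 of cohort 1 had 20.6 CPM, each the highest of its 7 libraries.

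Several named members had a TRAP over lysate ratio that differed between the cohorts by the interaction test of edgeR. The log2 ratio in cohort 2 minus that in cohort 1 was 1.22 for Rps27l, 1.14 for Rps18, 1.12 for Rps25, 1.10 for Rpl9 and 0.61 for Rpl10a. Neuron markers had a lower ratio in cohort 2 at the same time (median -0.96), and their part in these differences was not tested. The differences were not fitted without the 2 mice of unmatched sex markers.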

How the results depend on the processing

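Of 372 checks of counts and medians of the members under other settings, 356 left the result where it was and 16 moved it. Many of these results were counts of 0 in the run comparisons. Of 1627 checks of other results, 1524 stayed the same and 73 were reversed. A further 18 moved, 8 were stronger and 4 weaker. For TRAP against lysate, 78 members were higher whichever mouse was left out, 1 to 2 were lower, and the median was 1.71 to 1.81. Rpl26 joined Rpl22l1, making 2 lower, with library totals, upper quartile factors, DESeq2, limma-voom, and a replicate block on the mouse with a GC or length offset. The median was 1.24 with library totals, 1.45 with the replicate block and GC offset, 1.41 with the block and length offset and 2.09 in cohort 2 alone. The interquartile range over members, 0.71 in both cohorts, was 0.90 in cohort 1 and 0.60 in cohort 2. The replicate block on the mouse alone gave 1.73 and changed no other call. Library totals gave -0.004 for Rpl34 and -0.21 for Rps27, and the block with GC offset -0.08 for Rps27. Per kb of coding length the median level was 785 in TRAP and 228 in lysate.

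No member was called in a run comparison, so these settings moved uncalled values only. Home cage and run mice share a sex and number label, which marks no shared animal, and 0 of 7 such pairs in either fraction correlated over 0.1. A replicate block on it gave medians of 0.18 in TRAP and 0.14 in lysate with 0 called, and changed the sign of Rpl39l in lysate (-0.65). In TRAP the median was 0.08 to 0.26 with a mouse left out. The sign changed with library totals for Rpl22l1 (-0.01), Rpl30 (-0.03), Rps27a (-0.04) and Rps27l (-0.05). Without the 2 mice it changed for Rpl30 (-0.12), Rpl36 (-0.01), Rps27a (-0.05) and Rps27l (-0.12), and in cohort 1 for Rpl30 (-0.11), Rpl36 (-0.05), Rpl41 (-0.02), Rps27a (-0.08) and Rps27l (-0.08). Rpl22l1 was -0.15 in cohort 2 and -0.03 with a purity covariate, and Rps27l -0.02 with no cohort term and -0.05 with a length offset. With a mouse left out, Rpl22l1 ran from -0.14 to 0.21, Rpl30 from -0.07 to 0.09, Rps27a from -0.10 to 0.15 and Rps27l from -0.07 to 0.08.

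In lysate the median was 0.10 to 0.18 with a mouse left out. Rpl35 was -0.04 without the 2 mice and in cohort 1, 0.00 with no cohort term, -0.06 with a GC offset and -0.01 with a length offset. Rpl39l was -0.83 with limma-voom and -0.11 in cohort 1, Rpl39 0.002 in cohort 1, and Rps27l 0.04 with a GC offset. With a mouse left out, Rpl15 ran from -0.17 to 0.01, Rpl35 from -0.005 to 0.07 and Rpl39l from -0.83 to 0.86. For the difference between fractions the median was -0.04 to 0.15. Rpl39l was 1.66 with limma-voom, 0.59 with the replicate block on the mouse and 0.04 without the 2 mice, where Rpl10a was -0.12, Rpl36 -0.07 and Rpl41 -0.04. With a mouse left out, Rpl10a ran from -0.01 to 0.17, Rpl39l from -0.81 to 0.80, Rps24 from -0.21 to 0.02 and Rps25 from -0.17 to 0.02. For the difference between cohorts in TRAP, the median was 0.05 without the 2 mice, where Rpl22l1 was 0.38 and Rpl39 0.43. A GC offset, chosen after seeing the data, gave 0.09 for Rpl22l1 and 0.11 for Rpl4. Rpl8 was -0.02 for the ratio between cohorts with limma-voom and with the replicate block. The cause of these changes was not tested. Counts of Rpl26 and Rpl39l limit what can be said of them.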
